A study of Mus musculus with 21 samples.

Results

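The genes described here are 37 genes of glycolysis and of the response of cells to low oxygen, taken as a named list. The list was chosen with earlier results of these data known, so that it is not independent of them. Of the 37, 34 lay on a probe set of the Affymetrix Mouse Gene 1.0 ST array that carries 1 gene symbol, out of 19937 such genes on the array, and for a gene with more than 1 such probe set the brightest by its average over the 21 arrays was taken. Gapdh, Gpi1 and Eno1 were not on such a probe set and were not analysed here. Of the 34 genes, 27 passed the filter on dim probe sets, which kept those whose largest group mean was at least 7.33, and these 27 were tested. Pfkfb4, Eno2, Pdk1, Higd1a, Car9, Car12 and Ankrd37 lay below it and are described by their values. All values are RMA values per probe set on the log2 scale, so that a difference of 1 is a factor of 2, and they were compared between arrays for the same gene and never between genes.

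The cells were N202, a clone of mammary carcinoma cells from FVB-NeuN mice that carry a rat HER-2/neu transgene under the MMTV promoter, and all groups also expressed green fluorescent protein fused to histone H2B. The parental cells (P0) were not placed on tissue and had 2 arrays, labelled as arrays 1 and 2 here. For the other groups, spheroids of the cells were grown on minced brain, bone marrow, lung or breast tissue in a dorsal skinfold chamber of female nude mice, with C57BL/6 donors named for the first 3 tissues, for 21 days a passage, with selection in G418 and growth in culture between passages. Brain P1 to P4 had 2 arrays each, the second of which the labels call a technical replicate, of separate cultures of 1 adapted line, so that p-values measure the spread between cultures. Marrow P1 to P4, lung P1 to P4, breast P1, and P1 and P2 of a second adaptation experiment on brain had 1 array each. Before RNA was taken the cells were sorted for fluorescence and grown again in culture, so that all levels below are those of cultured cells. Each tissue was thus followed in 1 adapted line, with a second line for brain alone.

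Glycolysis splits glucose into pyruvate, which is either passed to the mitochondria or reduced to lactate. In low oxygen the prolyl hydroxylases that mark hypoxia-inducible factor (HIF) for degradation lose activity, HIF builds up and, with its partner Arnt, switches on glucose carriers, glycolytic enzymes and proteins that restrain the mitochondria. Tumour cells often run glycolysis fast with oxygen present as well, and many of the genes are also under other controls, such as Myc and growth factor signalling.

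HIF binds a short core in DNA, ACGTG or GCGTG, and the core is shown here in the promoters of 5 genes whose levels differed between the early and late brain passages, 3 that were lower early and 2 that were higher. The promoters are RefSeq sequences on GRCm38.p6, from 250 bases before the start of the gene to 50 after it, written from 5′ to 3′ on the strand of the gene, and the capitals mark either core on either strand. Ndrg1, Bnip3l and Bhlhe40 had no entry in the table. P4ha1 lies at chr10:59323046-59323345 on the + strand, Bnip3 at chr7:138909457-138909756 on the - strand and Ldha at chr7:46845554-46845853 on the + strand, and all 3 genes were lower in the early passages. Pfkfb3 lies at chr2:11553880-11554179 on the - strand and Egln3 at chr12:54203825-54204124 on the - strand, and both were higher there.
P4ha1: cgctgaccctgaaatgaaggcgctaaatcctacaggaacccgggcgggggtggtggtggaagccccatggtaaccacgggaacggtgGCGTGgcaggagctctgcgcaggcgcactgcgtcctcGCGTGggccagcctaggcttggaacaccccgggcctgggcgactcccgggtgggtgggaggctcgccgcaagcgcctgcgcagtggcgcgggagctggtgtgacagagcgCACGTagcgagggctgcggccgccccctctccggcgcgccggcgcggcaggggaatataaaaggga
Bnip3: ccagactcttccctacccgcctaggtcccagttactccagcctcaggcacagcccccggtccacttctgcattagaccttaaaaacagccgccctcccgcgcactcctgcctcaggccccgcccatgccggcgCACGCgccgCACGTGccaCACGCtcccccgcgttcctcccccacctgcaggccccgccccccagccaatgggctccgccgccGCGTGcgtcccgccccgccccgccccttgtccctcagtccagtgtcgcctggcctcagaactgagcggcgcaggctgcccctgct
Ldha: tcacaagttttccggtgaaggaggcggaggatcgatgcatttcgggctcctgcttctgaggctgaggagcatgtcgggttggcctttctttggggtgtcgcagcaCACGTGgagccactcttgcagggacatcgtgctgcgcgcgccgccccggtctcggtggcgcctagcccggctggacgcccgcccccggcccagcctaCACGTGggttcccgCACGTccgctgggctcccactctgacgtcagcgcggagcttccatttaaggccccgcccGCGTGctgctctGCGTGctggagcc
Pfkfb3: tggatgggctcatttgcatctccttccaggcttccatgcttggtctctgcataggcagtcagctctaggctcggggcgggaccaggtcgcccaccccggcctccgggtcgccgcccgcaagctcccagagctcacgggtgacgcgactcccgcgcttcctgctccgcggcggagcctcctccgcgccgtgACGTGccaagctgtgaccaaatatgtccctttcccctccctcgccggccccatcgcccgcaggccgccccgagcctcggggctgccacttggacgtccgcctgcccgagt
Egln3: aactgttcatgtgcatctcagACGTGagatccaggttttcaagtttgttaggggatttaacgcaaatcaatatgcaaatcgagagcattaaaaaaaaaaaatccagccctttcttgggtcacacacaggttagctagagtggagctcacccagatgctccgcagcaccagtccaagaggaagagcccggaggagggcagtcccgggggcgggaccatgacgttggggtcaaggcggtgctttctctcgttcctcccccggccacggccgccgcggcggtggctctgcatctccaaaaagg

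Ldha had 7 matches, Bnip3 5 and P4ha1 3, where a palindromic site counts once on each strand, while Pfkfb3 and Egln3 had 1 each. The counts of the called genes not printed did not follow this split. Pfkp, higher early, had 4, and Slc2a1, Aldoc, Pgam1 and Gbe1, lower early, had 2, 3, 3 and 0. Of the 34 genes with a promoter in the table (outermost start where there were several), 24 held either core, which is 70.6%, beside 43.8% of the 27025 genes in the table. ACGTG was held by 18 of the 34 (52.9%) and by 19.6% of all, and GCGTG also by 18 of the 34 and by 32.5% of all. Of the genes called lower in the early brain passages below, 7 had an entry and 6 of these held a core, Gbe1 being without one, and the 3 called higher all held one. A match is a run of letters and no evidence of binding.

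The defining markers of the labelled cell type were present: 9 of 10 genes of mammary tumour epithelium, Erbb2 and the keratins Krt8 and Krt18 among them, lay above the filter limit, with a list mean of 9.84 to 10.14 over the groups. Of the markers of other cells, 0 of 10 fibroblast and 0 of 10 endothelial genes reached the limit in any group, as did 1 of 10 neuronal genes (Map2), 2 of 9 glial genes (Gja1 and Mbp) and 2 of 9 genes of blood cells (Cd68 and Cd14). The list means of these 5 lists lay between 4.28 and 5.53 in all groups. Some of the 14 markers that were tested moved with the early brain passages. Cd68, a macrophage gene, rose by 1.94 at brain P1 and by 2.24 at P2 (adjusted p = 0.017 and 0.006), and was higher early than late by 0.87, as was Cd14 by 0.78, while Ptprc, Csf1r and Lyz2 stayed at or below 5.69 in every group. Cd68 was not high in the early brain passages alone, with 7.72 at brain P4 and 7.49 at lung P4 beside 6.01 in the parental cells. It passed the filter through brain P1, P2 and P4 and lung P4 alone. These are the groups in which Cd68 is high, so that its calls are no independent support. Erbb2 fell by 1.19 at P1 and by 0.76 at P2 (adjusted p = 0.015 and 0.048), Map2 fell by 0.85 at P1, the claudin Cldn3 rose by 0.72 at P2, and Elf3, an epithelial transcription factor, fell by 0.86 there. Between early and late passages Cldn3 and Cldn7 were higher and Elf3 and Gja1 lower. The part of these markers in the results was not tested. The second arrays of brain P1 to P4 and the lung P1 array had a raised floor, with a 10th percentile over all probe sets of 2.89 to 3.39 beside 2.45 to 2.78 on the others. What part the floor has in the results was not tested beyond leaving these 5 arrays out, as given below. Genes on some mouse chromosomes were shifted as a whole in the early brain passages: the median change of all kept probe sets on chromosome 4, which holds Slc2a1 and Car9, was -0.59 at brain P1 and -0.56 at P2, and that on chromosome 14, which holds Bnip3l and Ero1l, was -0.36 and -0.34. Chromosome 19, with Pgam1 and Mxi1, had -0.29 and -0.31, and chromosome 12, with Egln3, -0.23 and -0.20. On the other chromosomes that hold members the medians lay between -0.08 and 0.17.

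As a set, the 27 tested genes varied more between groups than most genes. The range of the 16 group means had a median of 1.32 over the members and 0.96 over the 7300 genes tested, and it exceeded 1 in 20 of the 27 (74.1%) and in 46.8% of all genes. Relative to the mean of the parental arrays, the median of the members was lowest on the P1 array of the second brain experiment, at -0.47, and highest on parental array 2, at 0.22. It was -0.34 and -0.30 on the brain P1 arrays, -0.29 and -0.07 at P2, 0.17 and -0.07 at P3, and 0.05 and -0.13 at P4. On lung P1, P2 and P4 it was -0.42, -0.35 and -0.31, and on breast P1 -0.30, while on marrow it lay between -0.21 and 0.12. The median of all genes on the same arrays lay between -0.24 and 0.03. Most of the shift at brain P1 was thus not shared by genes at large, but it was not particular to brain. At brain P3 and P4 the members lay above the median of all genes on each of the 4 arrays.

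**Figure D1:**
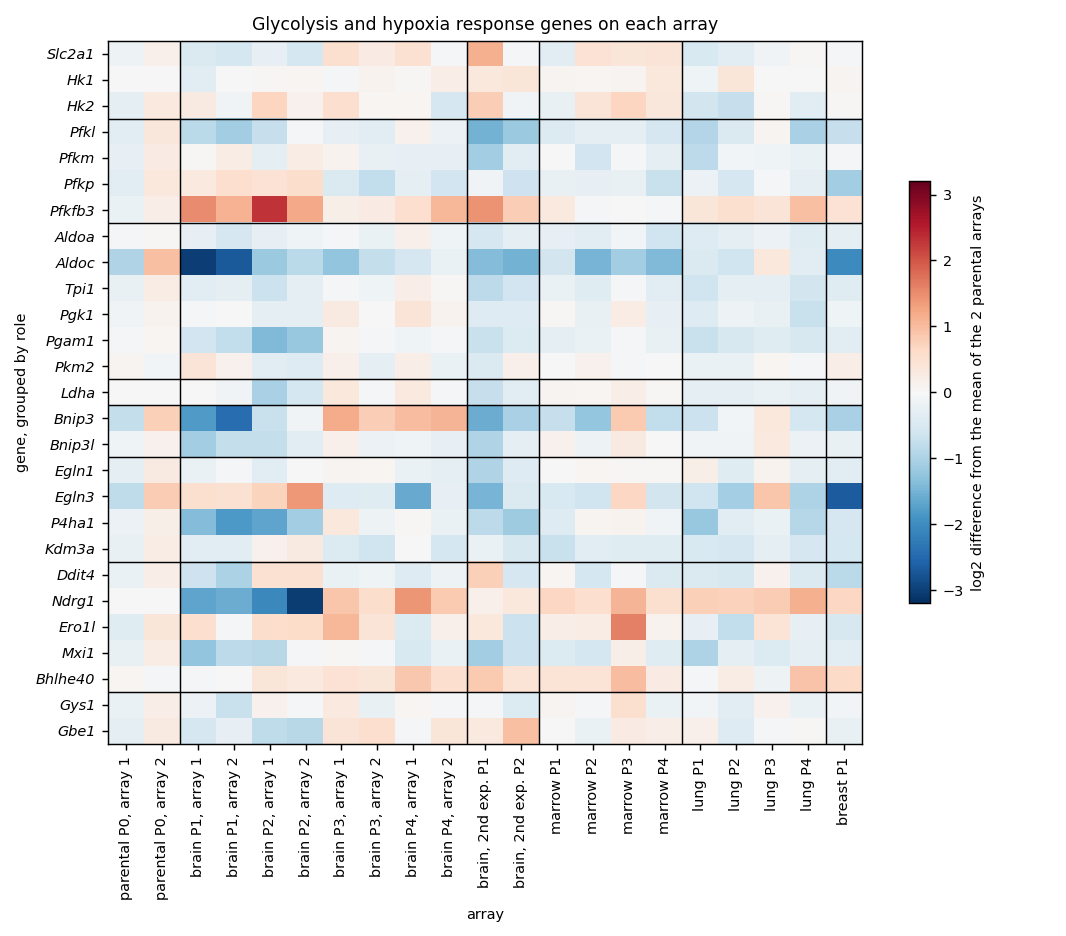
Log2 difference of each of the 27 tested genes (rows, grouped by role) from the mean of the 2 parental arrays, on each of the 21 arrays (columns). Ndrg1 is lowest on the 4 arrays of brain P1 and P2, Aldoc is at its lowest on the brain P1 arrays, and Pfkfb3 lies above the parental mean on 4 of 4 of the same arrays.

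**Figure D2:**
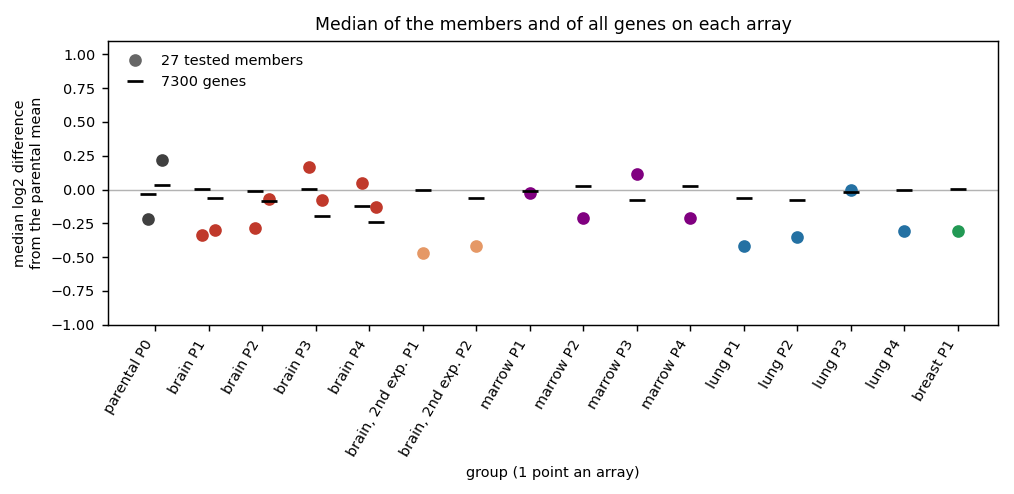
Median log2 difference from the parental mean on each array, for the 27 tested members (points) and for the 7300 genes tested (dashes). The 2 parental points lie at -0.22 and 0.22, 0.44 apart, while brain P1 lies at -0.34 and -0.30 and lung P1 at -0.42.

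The parental cultures differed from each other in these genes, which bears on every comparison with P0. Array 2 was higher than array 1 for 23 of the 27 members, by a median of 0.44, whereas it was higher for 59.0% of all genes, with a median of 0.06. The difference reached 1 in 3 members, which were Aldoc (8.60 on array 1 and 10.51 on array 2), Bnip3 (6.94 and 8.48) and Egln3 (8.56 and 10.21), and in 2.51% of all genes. In the 4 brain pairs the median difference between the arrays was -0.22 to 0.12, and it reached 1 in 0 or 1 member. Ndrg1, at 8.74 and 8.72, was among the members with the smallest difference between the parental arrays.

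At brain P1 Aldoc, Bnip3, Ndrg1 and P4ha1 were lower than in the parental cells. The fit of all groups with limma called 0 of the 27 higher and 4 lower (14.8%), beside 1.93% and 3.62% of all genes, and 20 of the 27 changes were below 0. The median change was -0.34 over the 27, -0.34 over all 34 with a value, and -0.02 over all genes. The size of the first depended on the parental array: it was -0.12 over the 27 without parental array 2 and -0.57 without parental array 1. Aldoc, the aldolase of brain that splits fructose bisphosphate, fell by 2.84 (standard error 0.51, adjusted p = 0.017). Bnip3, a mitochondrial protein that marks mitochondria for removal, fell by 2.12 (standard error 0.46, adjusted p = 0.035). P4ha1, the catalytic subunit of collagen prolyl hydroxylase, fell by 1.62 (adjusted p = 0.016), and Ndrg1, a stress-induced protein linked to differentiation and low oxygen, by 1.64 (adjusted p = 0.025). In bulk RNA a lower level in all cells and fewer cells with the transcript cannot be told apart. All 4 genes had both P1 arrays below both parental arrays, and their P1 means lay below 7.33, where the size of a decrease is uncertain. The P1 calls depended on single arrays: with 1 array of either group left out, the call of Ndrg1 was lost in 4 of 4 cases (highest adjusted p 0.13), that of Bnip3 in 3 (parental array 2 and either P1 array, highest 0.22), that of P4ha1 in 3 (either parental array and P1 array 2, highest 0.13) and that of Aldoc in 2 (either P1 array, highest 0.10).

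At P2 Ndrg1 and P4ha1 were again lower than in the parental cells, Pgam1 was lower too, and Pfkfb3 was higher. Of the 27, 1 was called higher (3.70%) and 3 lower (11.1%), beside 4.90% and 8.37% of all genes, shares close to the background. Ndrg1 fell by 2.54 (standard error 0.32, adjusted p = 0.0028), P4ha1 by 1.40 (adjusted p = 0.016) and Pgam1, the phosphoglycerate mutase of lower glycolysis, by 1.31 (standard error 0.17, adjusted p = 0.0034). Pfkfb3, which makes the fructose 2,6-bisphosphate that activates phosphofructokinase, rose by 1.76 (standard error 0.35, adjusted p = 0.016) from a parental mean of 6.17, below the filter limit. Pfkfb3 passed the filter through brain P1, brain P2 and P1 of the second brain experiment alone, the groups in which it is high, so that its calls describe these arrays and are no independent support. The calls of Ndrg1 and Pgam1 were kept with any 1 array left out, but were lost with both brain experiments in a random block (adjusted p = 0.82 for both) and without the 5 arrays with the raised floor (0.08 and 0.12), while that of Pfkfb3 was lost without parental array 1 (adjusted p = 0.11) or P2 array 1, and that of P4ha1 without either parental array or P2 array 1 (highest 0.10). The median change was -0.29 in the members and -0.05 over all genes, and it was -0.042 without parental array 2 and -0.073 without P2 array 1. Aldoc, with -1.03 here, was called lower without parental array 1 (-1.98, adjusted p = 0.022).

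At brain P3 and P4 no member was called different from P0. limma called 0 of 27 at P3, where 0.658% of all genes were called in either direction, and 0 of 27 at P4, where 1.01% were, with 3 and 4 members at an unadjusted p under 0.05. The median changes of 0.03 and -0.03 stood beside -0.10 and -0.19 over all genes, and the former was 0.23 without parental array 2. Without parental array 1, the lower one, Aldoc was called lower at P3 (-1.96, adjusted p = 0.037).

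The comparison of the early passages (P1 and P2) with the late ones (P3 and P4) does not use the parental arrays and had 4 arrays on each side. It called 3 of the 27 higher early (11.1%) and 10 lower (37%), beside 16.6% and 10.9% of all genes. The median difference was -0.35 over the members and 0.10 over all genes. The 10 lower genes came from several steps: the glucose carrier Slc2a1, the enzymes Aldoc, Pgam1 and Ldha, the mitochondrial proteins Bnip3 and Bnip3l, the hydroxylase P4ha1, Ndrg1, the repressor Bhlhe40 and the glycogen branching enzyme Gbe1. The 3 higher ones were Pfkp, Pfkfb3 and Egln3. Ndrg1, Bnip3, P4ha1, Pgam1, Gbe1, Slc2a1 and Pfkp kept the call with any 1 of the 8 arrays left out (highest adjusted p 0.041, for Slc2a1). The call was lost for Aldoc and Bhlhe40 without 7 of the 8 arrays (all but P3 array 1 for Aldoc and all but P4 array 2 for Bhlhe40), for Egln3 without 6 (all but P2 array 1 and P4 array 2), for Ldha without 5 (both P1 arrays and array 1 of P2, P3 and P4), for Bnip3l without array 1 of any of the 4 passages, and for Pfkfb3 without array 1 of P1 or P4, with adjusted p of at most 0.12. Without the 5 arrays with the raised floor, which leaves 1 array a passage, only the call of Ndrg1 was kept.

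**Figure D3:**
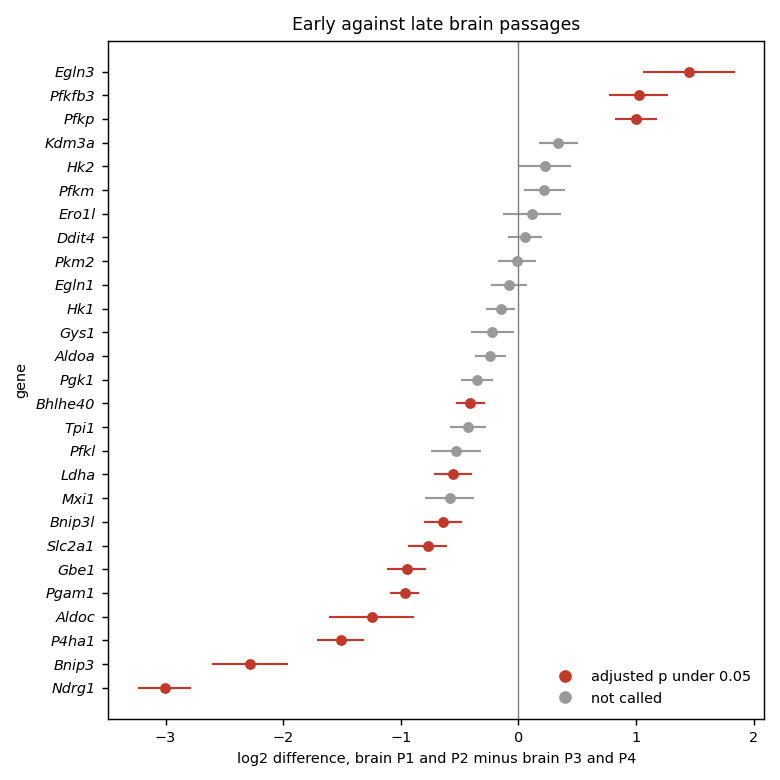
Log2 difference between brain P1 and P2 and brain P3 and P4 for the 27 tested genes, with bars of 1 standard error and 4 arrays on each side. Called genes are in red. Ndrg1 lies farthest to the left at -3.01 and Egln3 farthest to the right at 1.45.

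Glucose enters the cell through Slc2a1, the carrier also known as Glut1. Slc2a1 had 10.44 and 10.78 on the parental arrays, 10.14 and 10.04 at brain P1, 10.34 and 10.05 at P2, 11.12 and 10.88 at P3, and 11.09 and 10.56 at P4. All 4 early arrays lay below all 4 late ones, and the difference was -0.77 (standard error 0.16, adjusted p = 0.01). With the median of each chromosome subtracted the call was lost (-0.24), and chromosome 4, where Slc2a1 lies, differed by -0.52 between the same passages. Hexokinase traps glucose in the cell: Hk1 ranged from 11.89 to 12.65 over the 21 arrays and Hk2, the inducible form, from 6.32 to 7.85, and neither was called in any comparison, although Hk2 was called higher than on marrow and lung (0.54, adjusted p = 0.034) with a block for the second brain arrays. The probe set of Hk1 stands by its identifier among probe sets of chromosome 14 and not of chromosome 10, where the gene lies, so that it may read a copy, and the other probe set of Hk1 had a change of 0.64 at brain P1 beside -0.19 on the one used.

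Phosphofructokinase is the main control point of the pathway. Its platelet form Pfkp had 9.34 and 10.02 on the parental arrays, 9.99 and 10.21 at brain P1, 10.14 and 10.25 at P2, 9.23 and 8.90 at P3, and 9.39 and 9.06 at P4. The early arrays were all above the late ones, by 1.00 (standard error 0.18, adjusted p = 0.0049), although the parental arrays spanned most of that gap. Pfkl and Pfkm, the liver and muscle forms, differed by -0.53 and 0.22, and neither was called there. With chromosome medians subtracted Pfkl was called lower early (-0.69, adjusted p = 0.046). The activator gene Pfkfb3 had 5.95 and 6.38 on the parental arrays, 7.67 and 7.27 at P1, 8.48 and 7.38 at P2, 6.36 and 6.42 at P3, and 6.70 and 7.23 at P4. The early arrays were again all above the late ones, if by a small gap to P4 array 2, and the difference was 1.02 (standard error 0.25, adjusted p = 0.019). Its relative Pfkfb4, below the filter, stood at 6.85 and 6.76 at P3, at 6.91 at marrow P3, and between 5.17 and 6.25 on the other 18 arrays. When no filter was used, Pfkfb4 was called lower in the early than in the late brain passages (-0.82, adjusted p = 0.032).

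**Figure D4:**
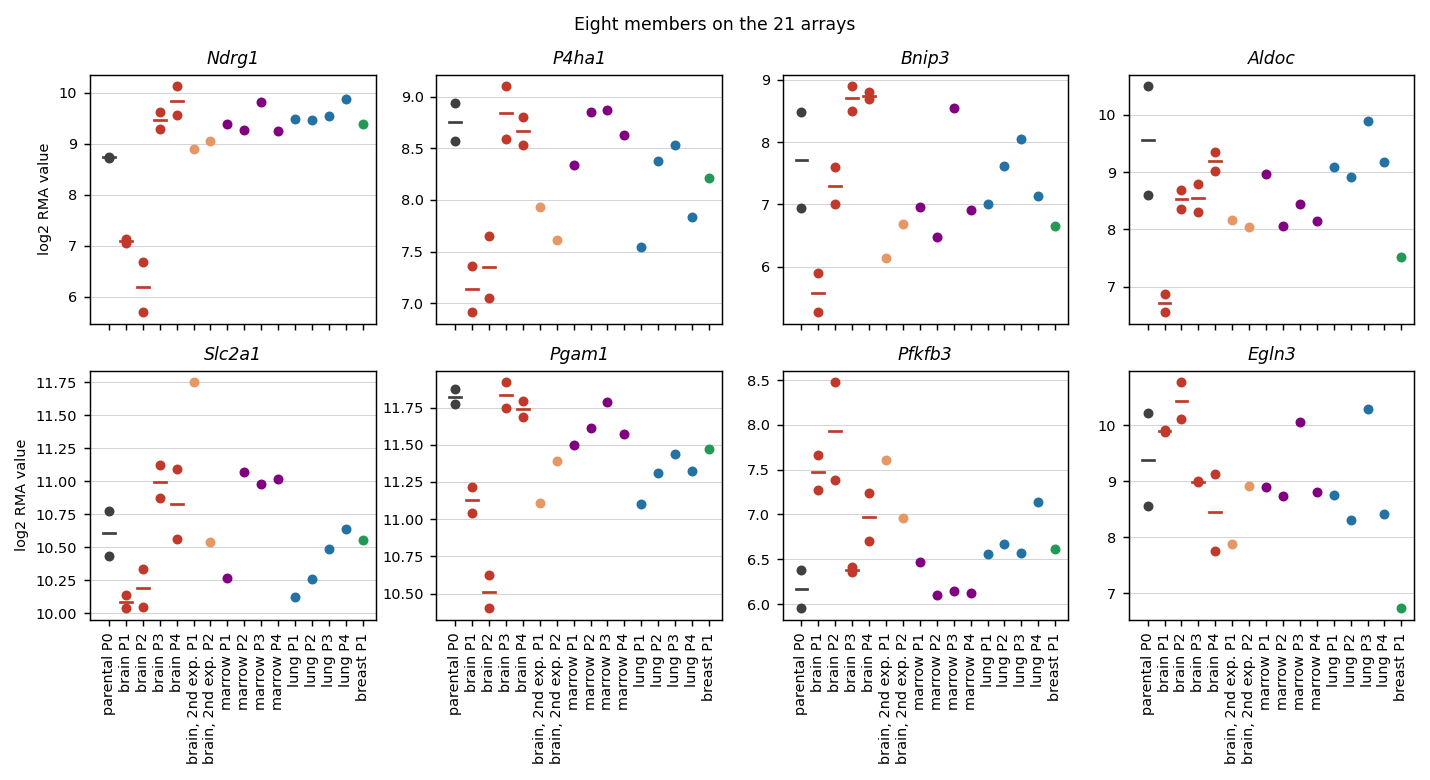
Log2 RMA values of 8 members on the 21 arrays, 1 point an array, with a line at the mean of each group with 2 arrays. The vertical axes differ between genes. Ndrg1, P4ha1, Bnip3 and Pgam1 dip at brain P1 or P2 and return at P3 and P4, Pfkfb3 is above the parental arrays at brain P1 and P2, and Aldoc, Bnip3 and Egln3 show a gap of over 1 between the 2 parental arrays.

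In the middle and lower part of the pathway Pgam1 and Aldoc were called lower in the early passages, and Aldoa, Tpi1, Pgk1 and Pkm2 were not. Aldoc had 8.60 and 10.51 on the parental arrays, 6.55 and 6.87 at brain P1, 8.37 and 8.69 at P2, 8.30 and 8.80 at P3, and 9.03 and 9.35 at P4, so that the P2 arrays lay near the lower of the parental arrays. The early and late arrays of Aldoc overlapped, with a difference of -1.25 (standard error 0.36, adjusted p = 0.035). Pgam1 had 11.77 and 11.88 on the parental arrays, 11.22 and 11.04 at P1, 10.40 and 10.62 at P2, 11.92 and 11.75 at P3, and 11.69 and 11.79 at P4. Its early arrays were all below the late ones, with a difference of -0.97 (standard error 0.12, adjusted p = 0.001). The Pgam1 probe set stands among probe sets of chromosome 7 and not of chromosome 19, where the gene lies, so a copy may be read there too. Aldoa, Tpi1, Pgk1 and Pkm2, the widely expressed enzymes of these steps, had early minus late differences of -0.02 to -0.43, and 0 of these 4 were called. Pgk1 and Tpi1 were called with equal array medians (-0.43 and -0.50), with a variance trend (-0.35 and -0.43) and with chromosome medians subtracted (-0.55 and -0.59), and Aldoa was called with chromosome medians subtracted (-0.42, adjusted p = 0.032). Eno2, the neuronal enolase, was below the filter at 4.27 to 5.77, and its highest values were those of brain P2, 5.64 and 5.77.

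Ldha, which reduces pyruvate to lactate, stood out at brain P2: it had 11.39 and 11.85 there, beside 12.42 and 12.41 on the parental arrays, 12.43 and 12.31 at P1, 12.75 and 12.36 at P3, and 12.73 and 12.35 at P4. Both P2 arrays lay below the other 8, but the early and late arrays overlapped through P1, and the difference was -0.55 (standard error 0.16, adjusted p = 0.037). Pdk1, the kinase that shuts the entry of pyruvate into the mitochondria, lay below the filter with 6.67 and 7.25 in the parental cells and 5.43 and 5.16 at brain P1. It was back at 6.11 and 6.95 at P2 and lay at 6.89 to 7.15 at P3 and P4, and in the second brain experiment it had 5.44 and 5.45, both near the P1 values.

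Bnip3 and Bnip3l encode proteins of the outer mitochondrial membrane that are induced in hypoxia. Bnip3 had 6.94 and 8.48 on the parental arrays, 5.90 and 5.26 at brain P1, 7.00 and 7.60 at P2, 8.91 and 8.50 at P3, and 8.69 and 8.80 at P4. The late arrays were all above the parental ones and above all early ones, with a difference between early and late of -2.28 (standard error 0.32, adjusted p = 0.0017). The probe set used stands among probe sets of chromosome 14, while the gene lies on chromosome 7; the other probe set of Bnip3, which stands among those of chromosome 7, had changes from P0 of -1.04, -0.36, 0.63 and 0.26 at P1 to P4, of the same sign and smaller. Bnip3l differed by -0.64 between early and late (standard error 0.16, adjusted p = 0.021), with all early arrays, 9.68 to 10.46, below the late ones, 10.53 to 10.96. Its call was lost with chromosome medians subtracted (-0.29), where chromosome 14 differed by -0.34. Higd1a, which helps assemble the respiratory chain, was below the filter, at 4.32 to 6.50.

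The oxygen-using hydroxylases went in different directions. P4ha1 had 8.57 and 8.93 on the parental arrays, 7.36 and 6.91 at brain P1, 7.06 and 7.65 at P2, 9.10 and 8.59 at P3, and 8.80 and 8.53 at P4. All 4 early arrays lay below the parental and the late ones, and the difference between early and late was -1.51 (standard error 0.20, adjusted p = 0.0012). Egln3, a prolyl hydroxylase that marks HIF for degradation and is itself a HIF target, had 8.56 and 10.21 on the parental arrays, 9.91 and 9.88 at P1, 10.10 and 10.77 at P2, 8.98 and 9.01 at P3, and 7.76 and 9.13 at P4. The early arrays were all above the late ones, by 1.45 (standard error 0.39, adjusted p = 0.028), but the parental arrays reached into both ranges. Egln1, the main sensor of this family, ranged only from 8.06 to 9.30 over all arrays, and the histone demethylase Kdm3a from 7.53 to 8.52. Neither was called in any comparison, although Kdm3a was called higher than on marrow and lung after cyclic loess (0.48, adjusted p = 0.046).

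Among the stress and transcription regulators Ndrg1 had the largest change of all members. It had 8.74 and 8.72 on the parental arrays, 7.05 and 7.14 at brain P1, 6.68 and 5.70 at P2, 9.63 and 9.29 at P3, and 10.13 and 9.56 at P4. The 4 early arrays were the lowest of all 21, with every array outside them at 8.72 or above, and the difference between early and late was -3.01 (standard error 0.23, adjusted p = 6.6e-05). Bhlhe40 differed by -0.41 (adjusted p = 0.041). Ddit4, an inhibitor of mTOR signalling, moved within the early passages, with 8.66 and 8.33 at P1 and 9.83 and 9.82 at P2, beside 9.12 and 9.54 on the parental arrays, and its difference between early and late was near 0 and not called. Ero1l, an oxidase of the endoplasmic reticulum, and Mxi1, an antagonist of Myc, were not called in any comparison of the fit used throughout. Mxi1 had -1.05 at P1 and -0.59 between early and late (adjusted p = 0.083 and 0.073), and both were called with the array number as a block (0.03 and 0.025), the latter also without P2 array 2 (-0.79, adjusted p = 0.027). Ero1l was called higher in early brain than on marrow and lung with chromosome medians subtracted (1.09, adjusted p = 0.014). Of the glycogen enzymes, Gbe1 had 7.15 and 7.43 at P1, 6.88 and 6.80 at P2, 8.09 and 8.24 at P3, and 7.66 and 8.08 at P4, beside 7.41 and 7.97 on the parental arrays. Its early arrays lay below the late ones, with a difference of -0.95 (standard error 0.17, adjusted p = 0.0046), and the synthase Gys1 was not called.

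Car9, the membrane carbonic anhydrase often used as a marker of hypoxia, was below the filter in every group mean. It had 4.81 and 5.11 on the parental arrays, 4.23 and 4.57 at brain P1, 4.80 and 5.24 at P2, 5.56 and 5.49 at P3, and 7.41 and 6.53 at P4. The P4 arrays were the highest of the brain series, and only lung P1, at 6.60, came between them. When no filter was used, Car9 was called lower in the early than in the late brain passages (-1.53, adjusted p = 0.017). Car12 stayed at 3.17 to 4.08 and Ankrd37 at 4.17 to 5.63.

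On marrow and on lung, with 1 array a passage whose spread was taken to be that of the groups with 2, no member was called to differ from P0 when the 4 passages were pooled. limma called 0 of 27 for marrow, beside 0.370% of all genes in either direction, and 0 of 27 for lung, beside 0.205%, with 3 and 6 members at an unadjusted p under 0.05. The median change was -0.06 on marrow and -0.27 on lung, where 23 of 27 changes were below 0, and over all genes it was -0.01 and -0.05. Without parental array 1 the medians of the members were -0.25 and -0.53, and without parental array 2 they were 0.10 and -0.059. Without parental array 1, Aldoc was called lower on marrow (-2.10, adjusted p = 0.028). In both tissues the passages differed in the same way: P3 had the highest value of the 4 passages for 17 of the 27 members on marrow and for 17 of 27 on lung, whereas 14.4% and 27.9% of all genes were highest at that passage. On marrow P1, P2, P3 and P4 Bnip3 had 6.96, 6.48, 8.56 and 6.91, and Egln3 had 8.90, 8.74, 10.05 and 8.80. On lung P1 to P4 the values were 7.01, 7.62, 8.06 and 7.14 for Bnip3 and 8.76, 8.31, 10.28 and 8.41 for Egln3. In each tissue both genes had their highest value at P3, above parental array 1. Parental array 2, at 8.48 for Bnip3 and 10.21 for Egln3, lay above Bnip3 at lung P3 and above Egln3 at marrow P3. Ero1l also had its highest value of all arrays at marrow P3, at 11.57. These counts were read after the values had been seen and have no replicate, so that a passage and a culture cannot be told apart.

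**Figure D5:**
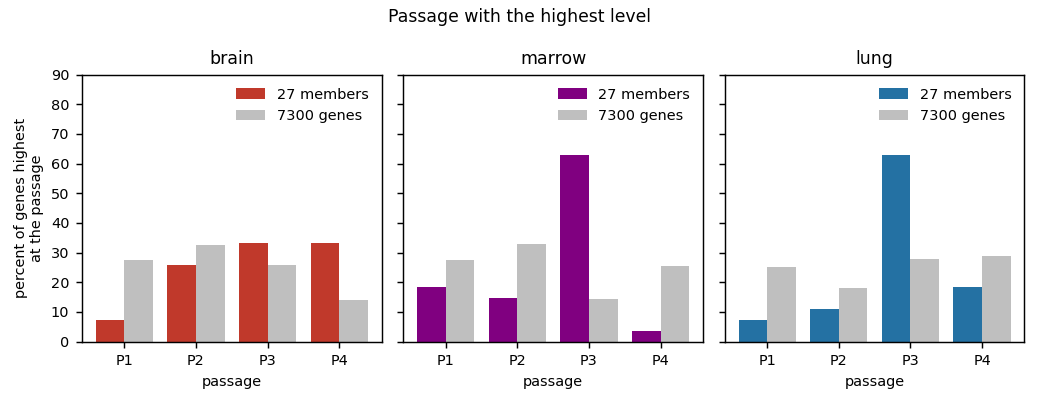
Share of the 27 tested members (colour) and of the 7300 genes (grey) with their highest level at each passage, for brain by the mean of 2 arrays and for marrow and lung by 1 array. P3 holds 17 of 27 members on marrow and on lung, while on brain P1 holds 2, P2 7, and P3 and P4 9 each.

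At breast P1, also 1 array, 0 of 27 members were called by limma, beside 0.260% of all genes, with 5 at an unadjusted p under 0.05 and a median change of -0.30 against 0.00 over all genes, or -0.11 without parental array 2. The values farthest from the parental mean were those of Egln3, at 6.73 the lowest of all 21 arrays, and Aldoc, at 7.51. Aldoc was called without parental array 1 (-3.00, adjusted p = 0.024).

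Set against marrow and lung at the same passages, brain P1 and P2 again had lower Ndrg1 and P4ha1 and higher Pfkfb3. Of the 27 members 3 were called higher (11.1%) and 4 lower (14.8%), beside 9.84% and 13.7% of all genes, shares close to those of genes at large. Ndrg1 differed by -2.76 (standard error 0.23, adjusted p = 0.00013): the 4 brain arrays lay between 5.70 and 7.14 and the 4 of marrow and lung between 9.27 and 9.48. P4ha1 differed by -1.03 (adjusted p = 0.0077), Bnip3l by -0.67 (adjusted p = 0.019) and Pgam1 by -0.56 (adjusted p = 0.013). For P4ha1 the lung P1 array, at 7.55, lay within the range of the brain arrays. Pfkfb3 was higher by 1.25 (adjusted p = 0.0089), with 7.27 to 8.48 on brain and 6.10 to 6.67 on the other tissues, Egln3 by 1.49 (adjusted p = 0.027) and Pfkp by 0.78 (adjusted p = 0.016). Of these, Pfkfb3 had entered the test through its high brain groups, and all its marrow and lung group means lay below the filter limit. The calls of Ndrg1, P4ha1 and Pfkfb3 were kept with any 1 of the 8 arrays left out. Egln3 lost its call without either brain P1 array, brain P2 array 2 or the lung P2 array (highest adjusted p 0.087), Pfkp without array 2 of either passage (0.062), Bnip3l without array 1 of either (0.075) and Pgam1 without P1 array 2 (0.057).

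In the second adaptation on brain the set median again lay below the parental mean, but Ndrg1 did not. Against P0, limma called 0 of 27 members, beside 0.315% of all genes, with 16 members at an unadjusted p under 0.05, of which 12 were lower, and the median change was -0.42 against -0.02 over all genes, or -0.24 without parental array 2. Aldoc was called lower without parental array 1 (-2.40, adjusted p = 0.038). Both experiments use the same parental arrays. Ndrg1 had 8.90 at P1 and 9.06 at P2 of the second experiment, above both parental arrays, and it was 2.34 higher than in the first experiment (standard error 0.28, adjusted p = 0.0015). Slc2a1 was higher by 1.01 (adjusted p = 0.014), carried by its P1 value of 11.75, the highest of all arrays, while P2 had 10.54: without the P1 array the difference was 0.40 (adjusted p = 0.44). Gbe1 was higher by 1.25 (adjusted p = 0.0064). Egln3 had a difference of -1.77 (adjusted p = 0.047), Pfkp of -0.84 (adjusted p = 0.039) and Pfkm of -0.79 (adjusted p = 0.048). These 3 higher (11.1%) and 3 lower members (11.1%) stood beside 7.82% and 5.45% of all genes. The call of Ndrg1 was kept with any 1 of the 6 arrays left out. That of Slc2a1 was lost without the P1 array of the second experiment alone, and that of Gbe1 without its P2 array alone (0.92, adjusted p = 0.078). Those of Egln3 and Pfkp were lost without any 1 of the 6 (highest adjusted p 0.29 for both), and that of Pfkm without any P1 array or array 2 of P2 of the first experiment (0.45). Chromosome 4 as a whole was 0.63 higher in the second experiment, and with chromosome medians subtracted the difference of Slc2a1 was 0.39 (adjusted p = 0.20). Pfkp and Pfkm also lost their calls there (adjusted p = 0.063 and 0.086), but their differences, -0.70 and -0.72, moved little, and chromosomes 13 and 15, where they lie, differed by -0.11 and -0.06. For the other genes that had changed in the first experiment, P4ha1 had 7.93 and 7.61, Bnip3 6.13 and 6.68, Aldoc 8.17 and 8.04, Pgam1 11.11 and 11.39 and Pfkfb3 7.61 and 6.96. All of these lay on the side of the parental arrays on which the first experiment had changed, and the difference between the experiments was not called for them. The breast P1 array lay on the same side for each of them, at 8.21, 6.66, 7.51, 11.47 and 6.62 in that order. All lung arrays also had lower Pgam1 and P4ha1 and higher Pfkfb3 than the parental arrays, so that these sides were not particular to brain.

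The genes around the set were read from lists of the same pathways. Of 11 tested genes of a further list of hypoxia-induced genes, 0 were higher and 3 lower (27.3%) at brain P1, beside 1.93% and 3.62% of all genes, and 2 were higher (18.2%) and 3 lower (27.3%) at P2, beside 4.90% and 8.37%. The collagen lysyl hydroxylases Plod1 and Plod2 fell, with changes of -1.51 and -2.20 at P1 (adjusted p = 0.024 and 0.0061) and of -1.78 and -1.43 at P2 (adjusted p = 0.008 and 0.021), and so did Ak4, a mitochondrial adenylate kinase, with -2.49 and -1.97 (adjusted p = 0.0099 and 0.015). The part of chromosome shifts in these decreases was not tested. In the second experiment Plod2 did not fall, with 9.05 at P1 and 9.02 at P2 beside a parental mean of 8.90. Plod1 had 7.64 and 7.79 there beside 7.96, and Ak4 8.35 and 7.45 beside 8.96. Vegfa, the vascular growth factor and a HIF target like these, rose by 1.88 at P2 (standard error 0.18, adjusted p = 0.001) and by 1.16 in the second experiment (adjusted p = 0.049), where P1 had 8.87 and P2 7.49 beside a parental mean of 7.02, and had 0.34 at P1 (adjusted p = 0.36). Known targets of the same factor differed in direction on the P2 arrays, and the part of HIF in this was not tested. Slc16a3, a lactate exporter, was below the filter, with group means of 4.81 to 5.39.

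Of 13 tested HIF subunits and regulators, 0 were called at brain P1 and 1 rose at P2 (7.69%, beside 4.90% of all genes). Between early and late passages 5 were higher (38.5%) and 0 lower, beside 16.6% and 10.9% of all genes, which is also the background of the counts that follow. Arnt2, a partner of HIF, was higher early by 1.72 (adjusted p = 0.00021), Hif1a, the oxygen-regulated subunit, by 0.74 (adjusted p = 0.0088) and the von Hippel-Lindau partner Tceb1 by 0.68 (adjusted p = 0.0099), while Epas1, the other such subunit, had 0.33 (adjusted p = 0.12). Arnt2 passed the filter through brain P2 alone (8.55), the group in which it is high, so that its calls are no independent support. At brain P1 Arnt2 had a change of 0.39 (adjusted p = 0.4). Hif1a was not called against P0, with 0.65 at P1 and 0.55 at P2 (adjusted p = 0.13 and 0.14). At P4 it had -0.53, so that its difference between early and late rests in part on a lower level at P4. Of 8 tested further sugar carriers and glycolytic enzymes, 3 were higher (37.5%) and 2 lower (25%) early, led by Gpd1 (1.47, adjusted p = 0.0012), a glycerol phosphate dehydrogenase, and Pgm1 (-0.75, adjusted p = 0.0074), a phosphoglucomutase. Of 16 genes of pyruvate entry and the citric acid cycle, 3 were higher (18.8%) and 1 lower (6.25%), shares near the background, with the kinase Pdk3 at -1.14 (adjusted p = 0.0021) and Pdp1, the phosphatase that acts against such kinases, at 0.87 (adjusted p = 0.0019). Of 6 pentose phosphate enzymes, 0 were higher and 2 lower (33.3%), Pgd at -0.69 and Tkt at -0.39, and of 7 genes of glycogen turnover 1 was higher (14.3%) and 2 were lower (28.6%), with Phka1, a subunit of phosphorylase kinase, at -1.01 (adjusted p = 0.0032). Results with chromosome medians subtracted were read for members alone, so the part of chromosome shifts in these counts was not tested.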

How the data were processed

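RNA of the 21 cultures was hybridised by the authors to 1 array each. The authors deposited 1 log2 value per probe set and array, obtained with RMA in the Affymetrix Expression Console, a method that corrects the background, makes the distributions of the arrays equal and combines probes by a median polish. That the scale is log2 follows from the span of the values. No further scaling was applied in the main fit, and the number of arrays limits the precision. The authors' filter used negative control probes that are not analysed here, so as many probe sets as theirs, 10522 of 34760, were retained, those whose largest group mean was highest. Of all probe sets 21640 carry 1 gene symbol, 1321 several and 11799 none. Chromosomes came from RefSeq on GRCm38.p6, in which 21553 probe sets found their gene.

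Groups came from the labels. With R 4.3.3 and limma 3.58.1, 1 linear model with a mean for each of the 16 groups was fitted over all arrays. Variances were moderated by empirical Bayes, with 5 residual and 3.9 prior degrees of freedom, and p-values were adjusted by Benjamini-Hochberg over all kept probe sets, with calls at an adjusted p under 0.05. Shares of all genes are over the 7300 kept genes with 1 symbol, and members were read from the same fit. The fit was tested on simulated data. Arrays with the same number were not paired in the main fit. As alternatives, the filter was dropped or tightened to 7000 probe sets, arrays were rescaled to equal medians or by cyclic loess, the variance was given a trend, probe sets of a gene were averaged, chromosome medians were subtracted, at least 2-fold was required, the 5 arrays with the highest floor or single arrays were left out, array number was used as a block, for the brain arrays alone too, and both brain experiments were joined with a random block. The members, the pathway and marker lists, the comparisons and the alternatives were chosen with earlier results of these data known. All members were named; from the pathway lists up to 3 called genes with the largest change, and Hif1a, Epas1, Vegfa and Slc16a3. The promoters to print were chosen after the values had been seen. Figures used Python 3.11.15, numpy 2.4.6 and matplotlib 3.10.9.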

Additional observations from a re-analysis of the deposited data

Results flagged for a closer look

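Of the differences between groups, 13 passed the test of the difference itself. Between the brain line and the marrow and lung lines at P1 and P2, Ndrg1 differed by -2.76 (adjusted p = 0.00013), P4ha1 by -1.03, Bnip3l by -0.67 and Pgam1 by -0.56, and Pfkp by 0.78, Pfkfb3 by 1.25 and Egln3 by 1.49. Between the second and the first brain experiment, Ndrg1 differed by 2.34 (adjusted p = 0.0015), Gbe1 by 1.25 and Slc2a1 by 1.01, and Pfkm by -0.79, Pfkp by -0.84 and Egln3 by -1.77. All are log2 differences from the fit with limma, with 1 array for each group of the other tissues and of the second experiment. Against marrow and lung, 11.1% of members were called higher and 14.8% lower, beside 9.84% and 13.7% of all genes, shares close to the background. Between the experiments 11.1% were called in each direction, beside 7.82% and 5.45%. Pfkfb3 had entered the test through its high brain groups. The calls of Pfkp and Egln3 between the experiments were lost without any 1 of the 6 arrays.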

How the results depend on the processing

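Of the calls of single members, 0 turned in direction under any alternative run, and the calls of Ndrg1 between early and late brain passages, against marrow and lung, and between the experiments were kept under all those run for them. Counts of called members moved as follows. Without a filter they were 0 at brain P1, 2 at P2, 8 for early against late, 2 against marrow and lung and 1 between the experiments. At P1 the count was 7 with the stricter filter, 7 with a variance trend, and 7 with first and second arrays as a replicate block, which changed no other count by over 1.5 times. The deviations of the second arrays correlated at 0.01 to 0.36, above 0.1 for 7 of 10 pairs of groups and 5 of 6 among brain passages, so that the second brain arrays shared part of their deviation, but as not every pair is above 0.1 they were not treated as paired. With a block for these alone, added after seeing the data, the counts were 5 at P1, 5 at P2 and 14 for early against late, and 0 members lost a call. With both experiments in a random block the counts were 0 at P1 and 0 at P2. Without the 5 arrays with the highest floor, which leaves 1 residual degree of freedom, they were 0 at P1, 0 at P2, 1 for early against late and 1 between the experiments, and the lung and marrow comparison was not run. With at least 2-fold they were 7 for early against late and 4 against marrow and lung. With chromosome medians subtracted the count between the experiments was 3. With 1 array left out, lone arrays too (added after seeing the data), counts were 0 to 2 at P1, 2 to 4 at P2, 0 to 1 at P3, 0 to 1 for marrow, 0 to 1 for breast and 0 to 1 for the second experiment against P0, 7 to 12 for early against late, 4 to 8 against marrow and lung, and 2 to 4 between the experiments. Under other scalings the medians of the set moved by less than their SD between the arrays of a pair, 0.18. With 1 array left out, likewise added, they were -0.57 to -0.12 at P1, -0.40 to -0.042 at P2, -0.089 to 0.23 at P3, -0.25 to 0.10 for marrow, -0.53 to -0.059 for lung and -0.41 to -0.11 for breast, in each case between the settings without parental array 1 and without parental array 2. The cause of these moves was not tested. With 1 or 2 arrays a group, changes under 2-fold were often not detectable, and values under 7.33 have uncertain sizes.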
